A study of Mus musculus with 12 samples.

Results

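Rev-Erbα, the nuclear receptor encoded by Nr1d1, was mapped by ChIP-seq, the sequencing of immunoprecipitated chromatin, at the genes that carry the adrenergic signal into the fat cell, from the receptors through cAMP to the CREB transcription factors. The genes were chosen by symbol: adrenergic receptors (Adra and Adrb with a number), adenylyl cyclases (Adcy), phosphodiesterases (Pde), subunits of cAMP-dependent protein kinase (PKA; Prkac and Prkar), A-kinase anchoring proteins (Akap) and genes whose symbol begins with Creb. Peaks annotated to them made up 110 of the 11227 sites listed at 4 °C (0.980%) and 15 of the 2183 sites listed at 29 °C (0.687%). The 110 sites belonged to 38 genes and the 15 sites to 10 genes. A gene is called bound here when a peak is annotated to it, at whatever distance, and no link from site to gene was tested. Together the lists held 113 different sites at 39 genes, since 12 sites appeared in both lists.

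The tissue was mouse brown adipose tissue, the heat-producing fat, from C57BL/6 animals housed for 1 week at 4 °C, a chronic cold challenge, or at thermoneutrality, given as 29 °C. HA-RevErba mice, in which Rev-Erbα carried an HA epitope tag, gave 4 libraries at 4 °C and 4 at 29 °C. WT mice without the tag went through the same pull-down with anti-HA magnetic beads and gave 2 libraries at 4 °C and 2 at 29 °C, which serve as its background. How the tag was introduced is not stated in the labels, and every group received the same beads. The 12 libraries held between 27.0 and 37.3 M (mega) uniquely aligned reads each. All binding values are those of 4 pools, 1 per genotype and temperature, with 63.8 M reads in the HA-RevErbα pool at 4 °C, 60.8 M in the HA-RevErbα pool at 29 °C, 27.1 M in the WT pool at 4 °C and 25.1 M in the WT pool at 29 °C. There is therefore no replicate behind any value and no test between temperatures. The unit, FPKM, is here the density of reads in a 200 bp window of the genome and not a level of gene expression. Ratios of 4 °C to 29 °C compare HA-RevErbα reads per read of the pool, and the interval after each ratio is the exact Clopper-Pearson 95% interval, which covers counting error only. In bulk tissue, fewer cells with a bound site and less binding per cell cannot be told apart. ChIP-seq gives no expression by which the tissue label could be checked. Ucp1, the gene that defines brown adipocytes, had 5 sites at 4 °C and 2 at 29 °C.

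In brown fat, noradrenaline released by sympathetic nerves in the cold acts on β-adrenergic receptors, which activate adenylyl cyclase through the stimulatory G protein. The cAMP that is made releases the catalytic subunits of PKA from their regulatory subunits, and PKA phosphorylates lipases and transcription factors such as CREB, while phosphodiesterases break cAMP down and anchoring proteins hold PKA near its substrates. Rev-Erbα is a repressor of the circadian clock that binds an AGGTCA half-site preceded by an A/T-rich stretch, or reaches DNA through other factors.

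Of the 110 sites 6 (5.45%, against 3.82% of all 4 °C sites) lay in promoters, at Adcy10, Adcy6, Adcy7, Adra1d, Akap4 and Prkaca. RefSeq promoter sequences of 250 bases before to 50 bases after a start (assembly GRCm38.p6, another build than the mm9 of the peaks) were at hand for 4 of them, Adcy10, Adcy7, Akap4 and Prkaca. They were searched on both strands for AGGTCA, the half-site, for TAGGTCA and TGGGTCA, in which TAGGTCA contains AGGTCA, and for TGACG, which the cAMP response element contains. Those with a match are printed 5′ to 3′ on the plus strand because their genes have promoter sites. Every match is in capitals, whether or not it lies in the peak window. A match on the minus strand therefore shows its reverse complement. Adcy10 (chr1:165484933-165485232) has 1 start in the table. Adcy7 (chr8:88282742-88283041) has 3, and the start shown is the only one of them with a match. Prkaca has 2, at chr8:83972728-83973027 and chr8:83976633-83976932, and both are shown. Which of several starts the distance of a peak refers to was not determined from the annotation. From mm9 to GRCm38.p6, the Adcy7 peak with the start shown and the Prkaca peak with the downstream start give the same shift. The other listed starts of these genes do not give it. Whether the shift is constant between the genes was not checked.
Adcy10: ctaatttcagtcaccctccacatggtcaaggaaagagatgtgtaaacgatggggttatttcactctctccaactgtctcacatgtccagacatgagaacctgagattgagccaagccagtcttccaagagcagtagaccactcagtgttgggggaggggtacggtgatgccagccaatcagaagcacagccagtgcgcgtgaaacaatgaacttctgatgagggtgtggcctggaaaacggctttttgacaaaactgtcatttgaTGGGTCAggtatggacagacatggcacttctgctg
Adcy7: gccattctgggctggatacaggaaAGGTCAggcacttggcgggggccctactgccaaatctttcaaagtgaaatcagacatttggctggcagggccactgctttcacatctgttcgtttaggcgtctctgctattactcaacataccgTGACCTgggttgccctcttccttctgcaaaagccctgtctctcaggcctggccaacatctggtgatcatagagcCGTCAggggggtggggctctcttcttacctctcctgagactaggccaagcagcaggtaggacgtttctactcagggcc
Prkaca, the upstream start: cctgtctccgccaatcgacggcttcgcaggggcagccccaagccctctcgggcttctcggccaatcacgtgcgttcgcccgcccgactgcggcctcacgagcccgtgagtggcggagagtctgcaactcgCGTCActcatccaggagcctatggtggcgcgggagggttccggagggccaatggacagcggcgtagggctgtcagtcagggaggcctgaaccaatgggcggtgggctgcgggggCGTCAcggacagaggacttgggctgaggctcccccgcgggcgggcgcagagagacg
Prkaca, the downstream start: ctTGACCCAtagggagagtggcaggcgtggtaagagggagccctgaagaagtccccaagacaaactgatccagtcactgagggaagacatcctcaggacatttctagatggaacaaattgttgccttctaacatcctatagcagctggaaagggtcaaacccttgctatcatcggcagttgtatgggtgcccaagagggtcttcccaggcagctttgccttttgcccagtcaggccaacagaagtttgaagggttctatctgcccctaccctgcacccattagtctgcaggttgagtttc

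In the Adcy10 promoter, TGGGTCA spans bases 15 to 21, counted from the first base after the 250 upstream bases as 0. This match lies past the start and outside the 200 bp peak window, which is upstream at −0.305 kb. The sequence begins 250 bases upstream, so most of that window was not searched. The Adcy7 promoter holds AGGTCA on the plus strand at −226 to −221 and on the minus strand at −102 to −97, and TGACG on the minus strand at −28 to −24. If the start shown applies, the match at −102 to −97 lies within the peak window, centred at −0.126 kb. The others then lie at its edges. The upstream Prkaca start has TGACG on the minus strand at −120 to −116 and again at −6 to −2, and the downstream start has TGGGTCA on the minus strand at −248 to −242. Whichever start applies, the TGACG matches lie outside the 200 bp peak window, centred at −0.281 kb. The TGGGTCA match lies within that window if the downstream start applies. Most of the Prkaca window also lies beyond the sequence searched. The 2 Akap4 promoters held no match. These short strings are common: AGGTCA occurs in 16.3% of all 32851 promoters of the table and in 12.8% of the 109 promoters that it lists for 27 of the bound genes. The same shares were 2.61% and 0.917% for TAGGTCA, 3.98% and 3.67% for TGGGTCA, and 20.8% and 24.8% for TGACG. A match is a description of the sequence and not a measured binding position.

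Of the 77 genes in the gene table whose symbols follow the rule, 37 (48.1%) had at least 1 site at 4 °C, where 21.8% of all protein-coding genes had one, and 10 (13.0%) had a site at 29 °C, where 6.30% of all protein-coding genes had one. The remaining bound gene, Akap2, did not match the table. By family, genes with a 4 °C site were, among others, 6 of 10 adenylyl cyclases, 11 of 26 genes with a Pde symbol, 3 of 6 PKA subunits, 7 of 15 anchoring proteins and 4 of 11 genes with a Creb symbol. At 29 °C the counts in these families were 1 adenylyl cyclase, 4 phosphodiesterases, 1 PKA subunit, 1 anchoring protein and no Creb gene. Bound genes often carried several sites, 2.89 per gene against 2.06 over all genes with a 4 °C site, and 12 of the 38 (31.6%, against 13.9% of all bound genes) had at least 4 sites and together held 70 of the 110. These shares describe the lists and were not tested.

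In the 110 windows listed at 4 °C the median density was 7.11 FPKM at 4 °C and 2.64 FPKM at 29 °C in the HA-RevErbα pools, against 1.12 FPKM at 4 °C and 1.21 FPKM at 29 °C in the WT pools. The median ratio of 4 °C to 29 °C was 2.98, with a range of 1.17 to 12.7, and over all 4 °C windows it was 3.05. The interval lay above 1 in 106 of the 110 windows (96.4%), against 95.4% of all 4 °C windows, a share near that of the list. In none of the 110 did it lie below 1, against 0.410% of all 4 °C windows. The list was called on the 4 °C pool, which by itself favours ratios above 1 in these windows. With the tagged pools scaled instead to equal WT reads over the 29 °C windows, 100 of the 110 ratios were above 1 and the median over all 4 °C windows was 1.79. The 29 °C windows passed a fold limit over WT at 29 °C, which by itself favours few WT reads there, so this scaling is partly set by the list. Ratios below 1 under that scaling included those of Adra1d (promoter), Adcy5 (61.4 and 54.7 kb), Akap12 (−131 and 16.2 kb), Akap10 and Pde3b. The median window held 90 reads in the HA-RevErbα pool at 4 °C and 32 in the HA-RevErbα pool at 29 °C, against 6 in each WT pool.

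**Figure D1:**
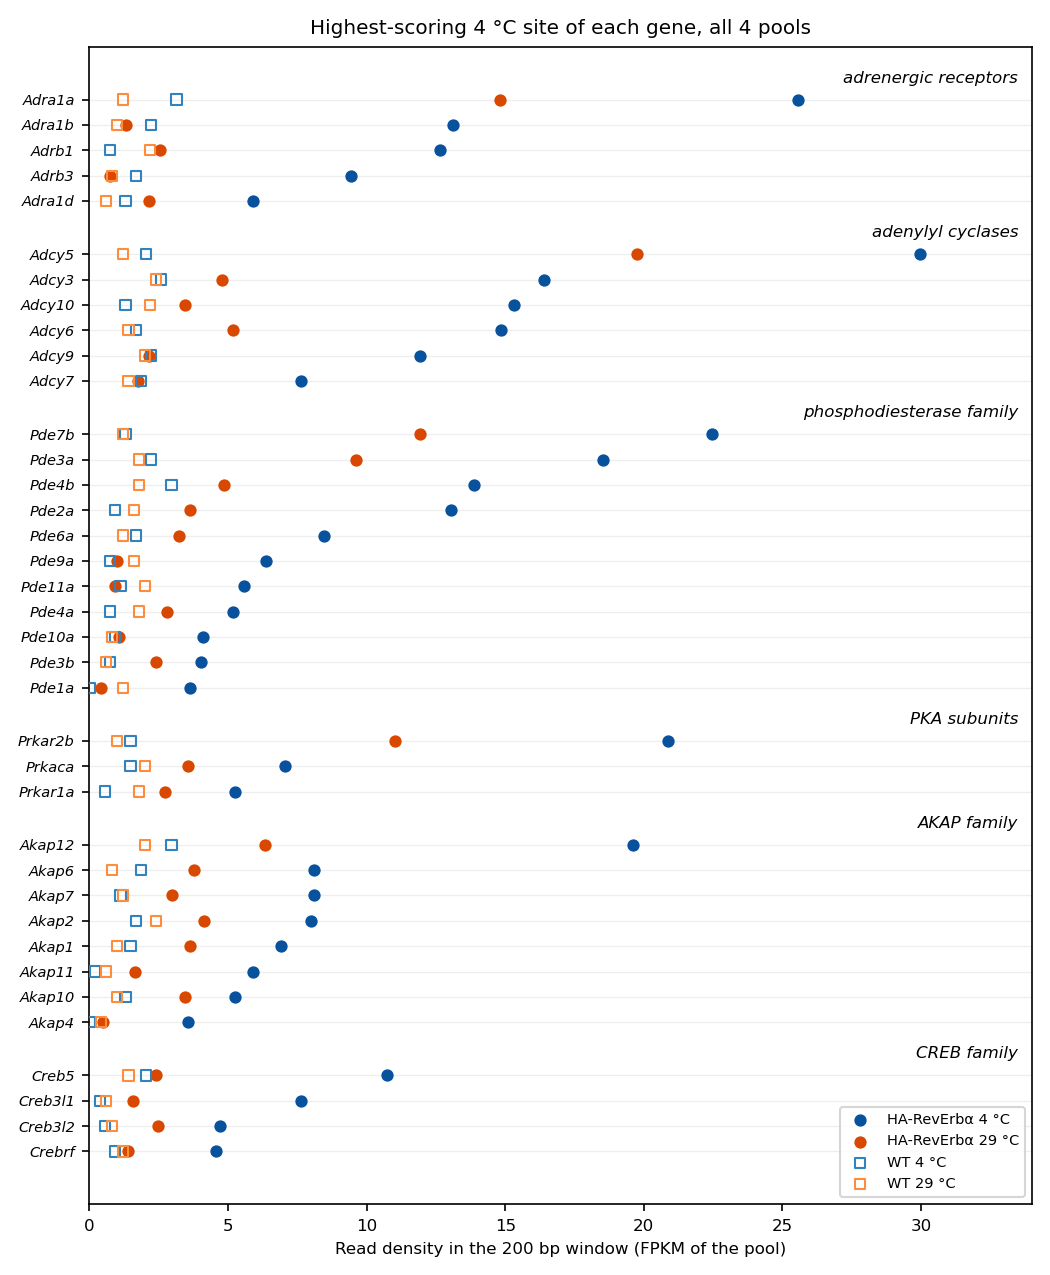
Read density (FPKM) of the 4 pools in the window of the highest-scoring 4 °C site of each gene described in the text, grouped by family and ordered by score; filled circles are the HA-RevErbα pools and open squares the WT pools, 1 pool per point, with no error bar because each group is 1 pool. The HA-RevErbα 4 °C point is the rightmost in every row, from 3.54 FPKM at Akap4 to 29.96 FPKM at Adcy5, and at Adrb3 the HA-RevErbα 29 °C point coincides with the WT 29 °C point.

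Adrb3 and Adrb1 encode β-adrenergic receptors, which couple to the stimulatory G protein, and both had intergenic sites annotated to them. Adrb3, the β-receptor typical of adipocytes, had 1 site, at −10.1 kb from its start in intergenic sequence and an annotated repeat (chr8:28350057-28350257, mm9; a minus sign marks upstream distances). It held 9.42 FPKM at 4 °C and 0.75 FPKM at 29 °C in the HA-RevErbα pools, against 1.67 FPKM at 4 °C and 0.81 FPKM at 29 °C in the WT pools. Its ratio of 12.7 (6.48 to 28.5) was the largest of all 113 sites. At 29 °C the tagged pool was at the level of WT, 0.928 times it (0.259 to 4.13).

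Adrb1, the β-receptor best known from the heart, was bound at different places in the 2 lists. Its 4 °C sites lay in intergenic sequence at −44.6 kb (chr19:56752145-56752345) and −43.7 kb (chr19:56753040-56753240), 895 bp apart. The site at −44.6 kb had 10.75 FPKM at 4 °C and 3.30 FPKM at 29 °C in the HA-RevErbα pools, against 1.67 FPKM at 4 °C and 2.20 FPKM at 29 °C in the WT pools. At −43.7 kb the HA-RevErbα pool held 12.63 FPKM at 4 °C and 2.56 FPKM at 29 °C, against 0.75 FPKM at 4 °C and 2.20 FPKM at 29 °C in the WT pools. Their ratios were 3.27 (2.28 to 4.77) and 4.95 (3.36 to 7.53).

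The 29 °C site of Adrb1, at −57.3 kb (chr19:56739427-56739627), ran the other way. It held 1.03 FPKM at 4 °C and 3.63 FPKM at 29 °C in the HA-RevErbα pools, against 0.93 FPKM at 4 °C and 0.61 FPKM at 29 °C in the WT pools. Its ratio was 0.282 (0.139 to 0.533), the only one of the 113 sites whose interval lay below 1, from 13 reads at 4 °C and 44 at 29 °C. At 4 °C the tagged pool was 1.11 times WT there (0.370 to 3.96). Among all 29 °C windows 7.74% had an interval below 1, so 1 of 15 is near the background. The site was 12.7 kb and 13.6 kb from the 4 °C sites, and its interval did not overlap either of theirs. It was also a weak peak, with rank 2032 by score among the 2183 of its list.

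The α1-receptors, which couple to phospholipase C, carried 18 sites at 4 °C. Adra1a had 9 of them, upstream and in its introns. The strongest, at −113 kb (chr14:67140778-67140978), held 25.57 FPKM at 4 °C and 14.81 FPKM at 29 °C in the HA-RevErbα pools, against 3.14 FPKM at 4 °C and 1.21 FPKM at 29 °C in the WT pools (ratio 1.73, 1.44 to 2.08). Its neighbour at −112 kb, 1082 bp away and in the 4 °C list only, held 10.52 FPKM at 4 °C and 3.46 FPKM at 29 °C in the HA-RevErbα pools, against 1.48 FPKM at 4 °C and 2.20 FPKM at 29 °C in the WT pools (ratio 3.04, 2.14 to 4.41). The intervals of these neighbours did not overlap.

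At −124 kb Adra1a had the other site present in both lists, with 11.85 FPKM at 4 °C and 5.52 FPKM at 29 °C in the HA-RevErbα pools, against 2.04 FPKM at 4 °C and 0.41 FPKM at 29 °C in the WT pools (ratio 2.15, 1.60 to 2.91). The intronic site at 113 kb, second in height, held 19.38 FPKM at 4 °C and 6.18 FPKM at 29 °C in the HA-RevErbα pools, against 1.85 FPKM at 4 °C and 2.20 FPKM at 29 °C in the WT pools (ratio 3.14, 2.42 to 4.12). A separate intronic site at 111 kb, 2644 bp from it, was in the 29 °C list only. That site had 7.77 FPKM at 4 °C and 4.86 FPKM at 29 °C in the HA-RevErbα pools, against 2.22 FPKM at 4 °C and 0.81 FPKM at 29 °C in the WT pools, so it was listed at 29 °C while its tagged signal was 1.60 times as high at 4 °C as at 29 °C (1.15 to 2.25). Its fold over WT at 4 °C was 3.51, under the 4-fold limit that the lists show, and at 29 °C it was 6.09.

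The other 5 Adra1a sites were in the 4 °C list only. The site at −135 kb had 9.34 FPKM at 4 °C and 2.64 FPKM at 29 °C in the HA-RevErbα pools, against 1.48 FPKM at 4 °C and 1.41 FPKM at 29 °C in the WT pools. At −84.7 kb the HA-RevErbα pool held 6.36 FPKM at 4 °C and 1.0 FPKM at 29 °C, against 0.56 FPKM at 4 °C and 0.21 FPKM at 29 °C in the WT pools. The intronic site at 23.4 kb had 5.19 FPKM at 4 °C and 1.24 FPKM at 29 °C in the HA-RevErbα pools, against 0.56 FPKM in the WT pool at 4 °C and 0 reads in the WT pool at 29 °C, a count that allows up to 0.598 FPKM. Their ratios were 3.55, 6.44 and 4.2. The intronic pair at 85.3 kb and 87.0 kb held 12.87 and 9.58 FPKM at 4 °C and 4.37 and 2.97 FPKM at 29 °C in the HA-RevErbα pools, against 2.59 and 1.67 FPKM at 4 °C and 3.0 and 1.41 FPKM at 29 °C in the WT pools. The ratios of the pair, 2.95 and 3.23, had overlapping intervals.

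Adra1b had 6 sites, all in the 4 °C list only and 4 of them intronic. The intronic site at 39.9 kb held 13.11 FPKM at 4 °C and 1.33 FPKM at 29 °C in the HA-RevErbα pools, against 2.22 FPKM at 4 °C and 1.01 FPKM at 29 °C in the WT pools. Its ratio of 9.95 (5.95 to 17.8) was the third of all, and at 29 °C the tagged pool was 1.32 times WT (0.462 to 4.61). An intergenic site at −28.1 kb had the same 13.11 FPKM at 4 °C but 3.96 FPKM at 29 °C in the HA-RevErbα pools, against 2.04 FPKM at 4 °C and 3.0 FPKM at 29 °C in the WT pools, for a ratio of 3.32 (2.39 to 4.67). The interval of the site at 39.9 kb did not overlap that of the site at −28.1 kb.

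Of the remaining Adra1b sites, that at −26.4 kb held 6.75 FPKM at 4 °C and 2.48 FPKM at 29 °C in the HA-RevErbα pools, against 1.12 FPKM at 4 °C and 0.61 FPKM at 29 °C in the WT pools. At 16.4 kb the HA-RevErbα pool had 10.60 FPKM at 4 °C and 1.98 FPKM at 29 °C, against 0.93 FPKM at 4 °C and 1.01 FPKM at 29 °C in the WT pools. The pair at 8.55 and 9.59 kb held 3.77 and 4.64 FPKM at 4 °C and 0.91 and 1.24 FPKM at 29 °C in the HA-RevErbα pools, against 0.56 FPKM at each in the WT pool at 4 °C and 1.01 and 0.41 FPKM in the WT pool at 29 °C. Ratios of these sites ran between 2.73 and 5.36.

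Adra1d, the last of the α1-receptors, had 3 sites in the 4 °C list only. Its promoter site, at −0.121 kb (chr2:131388042-131388242), had 4.56 FPKM at 4 °C and 2.72 FPKM at 29 °C in the HA-RevErbα pools, against 1.12 FPKM at 4 °C and 1.41 FPKM at 29 °C in the WT pools (ratio 1.68, 1.07 to 2.65). At −88.7 kb the HA-RevErbα pool held 4.40 FPKM at 4 °C and 0.67 FPKM at 29 °C, against 0.93 FPKM at 4 °C and 1.01 FPKM at 29 °C in the WT pools (ratio 6.67, 3.16 to 16.2). At 23.8 kb it held 5.89 FPKM at 4 °C and 2.15 FPKM at 29 °C, against 1.30 FPKM at 4 °C and 0.61 FPKM at 29 °C in the WT pools (ratio 2.75, 1.74 to 4.48). The intervals of the promoter site and the site at −88.7 kb did not overlap. The α2-receptors Adra2a, Adra2b and Adra2c, which couple to the inhibitory G protein, had no site in either list.

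**Figure D2:**
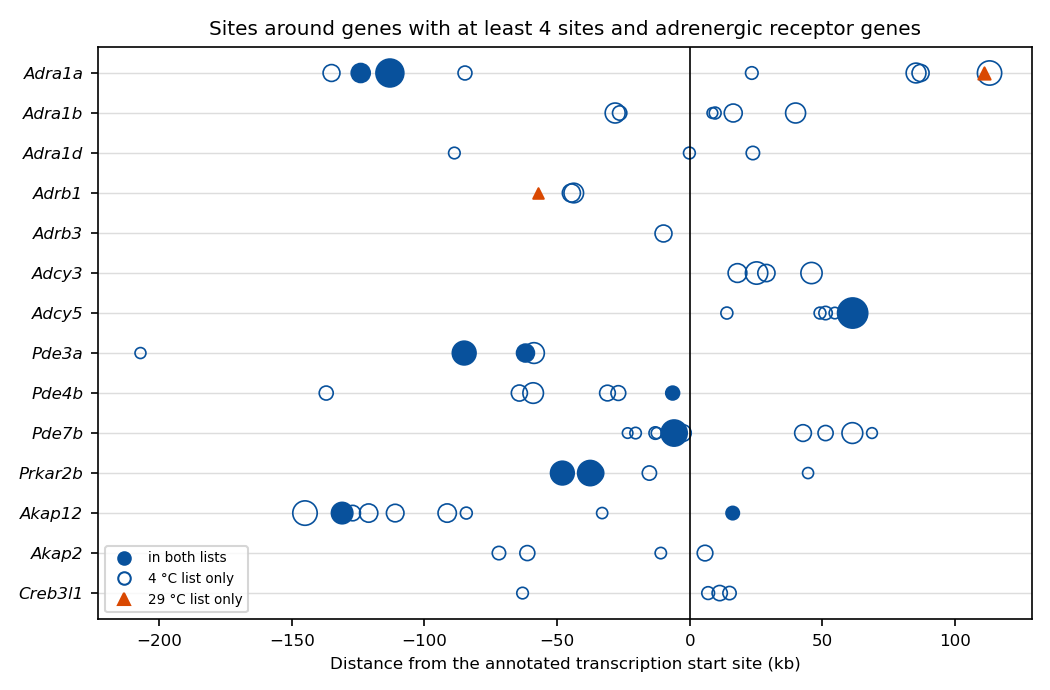
Distance of each site from the annotated start (kb, negative upstream) for the adrenergic receptor genes described in the text and the other genes with at least 4 sites at 4 °C; circles are 4 °C sites with an area in proportion to the HA-RevErbα 4 °C density, and triangles are sites listed at 29 °C only with an area in proportion to the HA-RevErbα 29 °C density. Adra1a, Pde3a, Pde4b and Akap12 have sites beyond 100 kb, and Adrb1 has its 29 °C site at −57.3 kb and its 4 °C sites nearer the gene; Adra1b, Pde7b and Akap2 sites are counted from more than 1 start.

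The adenylyl cyclases, which make cAMP, held 16 sites at 4 °C with a median ratio of 2.89 and a range of 1.5 to 7.06. Adcy5, a cyclase inhibited by calcium, had the strongest site of all the genes described here, in an intron 61.4 kb from its start (chr16:35217003-35217203) and ranked 132 of the 11227 sites by score. It held 29.96 FPKM at 4 °C and 19.75 FPKM at 29 °C in the HA-RevErbα pools, against 2.04 FPKM at 4 °C and 1.21 FPKM at 29 °C in the WT pools. The ratio of 1.52 (1.29 to 1.79) was among the lower ones, and this was the only cyclase site also listed at 29 °C. The other 4 intronic sites of Adcy5 were lower, with 4.32 to 5.89 FPKM in the HA-RevErbα pool at 4 °C and 1.57 to 2.89 FPKM in the HA-RevErbα pool at 29 °C. Of these, the site at 54.7 kb had a ratio of 1.5 whose interval (0.963 to 2.36) included 1.

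Adcy3, a cyclase present in adipocytes and in olfactory neurons, had 4 intronic sites, all in the 4 °C list only. The highest, at 25.2 kb, held 16.40 FPKM at 4 °C and 4.78 FPKM at 29 °C in the HA-RevErbα pools, against 2.59 FPKM at 4 °C and 2.40 FPKM at 29 °C in the WT pools (ratio 3.44, 2.56 to 4.68). The ratios of its 4 sites ran between 1.77 at 18 kb and 5.15 at 45.9 kb, and the intervals of these extremes (1.34 to 2.36 and 3.58 to 7.61) did not overlap. Adcy10, the soluble cyclase that responds to bicarbonate, had its strongest site in the promoter at −0.305 kb (chr1:167414909-167415109, mm9). It held 15.30 FPKM at 4 °C and 3.46 FPKM at 29 °C in the HA-RevErbα pools, against 1.30 FPKM at 4 °C and 2.20 FPKM at 29 °C in the WT pools (ratio 4.43, 3.16 to 6.34). The largest cyclase ratio, 7.06 (4.1 to 13.0), was at an Adcy10 intronic site 21.3 kb from the start. That site held 8.71 FPKM at 4 °C and 1.24 FPKM at 29 °C in the HA-RevErbα pools, against 2.04 FPKM at 4 °C and 1.60 FPKM at 29 °C in the WT pools. At 29 °C the tagged pool was 0.774 times WT there (0.308 to 2.11).

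Promoter sites were also found at Adcy6 and Adcy7. Adcy6, like Adcy5 inhibited by calcium, had its site at −0.130 kb (chr15:98438094-98438294), with 14.83 FPKM at 4 °C and 5.19 FPKM at 29 °C in the HA-RevErbα pools, against 1.67 FPKM at 4 °C and 1.41 FPKM at 29 °C in the WT pools (ratio 2.86, 2.14 to 3.87). Adcy7, whose promoter is printed above, had its site at −0.126 kb (chr8:90806665-90806865, mm9), with 7.62 FPKM at 4 °C and 1.74 FPKM at 29 °C in the HA-RevErbα pools, against 1.85 FPKM at 4 °C and 1.41 FPKM at 29 °C in the WT pools (ratio 4.40, 2.73 to 7.43). Adcy9 had 2 intronic sites, the higher with 11.93 FPKM at 4 °C and 2.15 FPKM at 29 °C in the HA-RevErbα pools, against 2.22 FPKM at 4 °C and 2.0 FPKM at 29 °C in the WT pools (ratio 5.57, 3.66 to 8.81). Adcy1, Adcy2, Adcy4 and Adcy8 had no site in either list.

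Among the phosphodiesterases, which end the signal by hydrolysing cyclic nucleotides, 30 sites at 11 genes were listed at 4 °C, with a median ratio of 3.11 and a range of 1.68 to 10.5. Pde7b, a cAMP-specific enzyme, had 10 intronic sites, the most of any gene that follows the rule. Its strongest, at −5.88 kb (chr10:20273917-20274117), was in both lists and held 22.44 FPKM at 4 °C and 11.93 FPKM at 29 °C in the HA-RevErbα pools, against 1.30 FPKM at 4 °C and 1.21 FPKM at 29 °C in the WT pools (ratio 1.88, 1.53 to 2.31). Its other 9 sites were in the 4 °C list only, and they included some of the largest ratios. At −20.4 kb Pde7b had 4.32 FPKM at 4 °C and 0.42 FPKM at 29 °C in the HA-RevErbα pools, against 0.56 FPKM at 4 °C and 1.01 FPKM at 29 °C in the WT pools (ratio 10.5, 4.23 to 33.6). At 51.2 kb it had 7.54 FPKM at 4 °C and 0.83 FPKM at 29 °C in the HA-RevErbα pools, against 1.48 FPKM at 4 °C and 1.41 FPKM at 29 °C in the WT pools (ratio 9.15, 4.77 to 19.7). The intervals of both lay above that of the strongest Pde7b site.

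Pde3a, whose enzyme is inhibited by cGMP, had 4 intergenic sites upstream, of which 2 were in both lists. At −85.0 kb (chr6:141112677-141112877) it held 18.52 FPKM at 4 °C and 9.63 FPKM at 29 °C in the HA-RevErbα pools, against 2.22 FPKM at 4 °C and 1.80 FPKM at 29 °C in the WT pools (ratio 1.92, 1.53 to 2.42). At −61.9 kb, in an annotated repeat, it held 10.52 FPKM at 4 °C and 3.46 FPKM at 29 °C in the HA-RevErbα pools, against 2.59 FPKM at 4 °C and 0.81 FPKM at 29 °C in the WT pools (ratio 3.04, 2.14 to 4.41). Pde3b, the relative through which insulin lowers cAMP in adipocytes, had 1 weak intronic site at 1.94 kb with 4.01 FPKM at 4 °C and 2.39 FPKM at 29 °C in the HA-RevErbα pools, against 0.75 FPKM at 4 °C and 0.61 FPKM at 29 °C in the WT pools. The ratio there, 1.68 (1.04 to 2.74), was the smallest of the 4 °C phosphodiesterase windows.

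Pde4b, a cAMP-specific enzyme of the rolipram-sensitive class, had 6 intronic sites. Its highest, at −59.0 kb, held 13.89 FPKM at 4 °C and 4.86 FPKM at 29 °C in the HA-RevErbα pools, against 2.96 FPKM at 4 °C and 1.80 FPKM at 29 °C in the WT pools (ratio 2.86, 2.12 to 3.91). The only Pde4b site in both lists was a lower one at −6.43 kb, with 6.28 FPKM at 4 °C and 3.46 FPKM at 29 °C in the HA-RevErbα pools, against 0.56 FPKM at 4 °C and 0.81 FPKM at 29 °C in the WT pools (ratio 1.82, 1.24 to 2.71). Pde2a, an enzyme stimulated by cGMP, had an intronic site 2.68 kb from its start with 13.03 FPKM at 4 °C and 3.63 FPKM at 29 °C in the HA-RevErbα pools, against 0.93 FPKM at 4 °C and 1.60 FPKM at 29 °C in the WT pools (ratio 3.6, 2.57 to 5.14). Pde8a, also cAMP-specific, was the only gene with a site at 29 °C and none at 4 °C. That site, at −16.9 kb (chr7:88341737-88341937), nevertheless had 7.38 FPKM at 4 °C and 4.04 FPKM at 29 °C in the HA-RevErbα pools, against 2.04 FPKM at 4 °C and 1.01 FPKM at 29 °C in the WT pools (ratio 1.83, 1.28 to 2.64), and its fold over WT at 4 °C was 3.64.

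Not all of the genes with a Pde symbol act on cAMP. Pde6a, of the cGMP-specific enzyme of rod photoreceptors, came after Pde7b, Pde3a, Pde4b and Pde2a in score, with 8.48 FPKM at 4 °C and 3.22 FPKM at 29 °C in the HA-RevErbα pools, against 1.67 FPKM at 4 °C and 1.21 FPKM at 29 °C in the WT pools, at a site in an intron and an annotated repeat (ratio 2.64, 1.82 to 3.91). Pde9a, a cGMP-specific enzyme, had 2 sites, and the dual-specificity Pde11a 2, while Pde10a, Pde1a and Pde4a had 1 each; the highest 4 °C site of these genes reached 3.62 FPKM at Pde1a to 6.36 FPKM at Pde9a in the HA-RevErbα pool at 4 °C, with 0.42 FPKM and 1.0 FPKM in the HA-RevErbα pool at 29 °C. No site in either list was annotated to 14 genes, Pde12, Pde1b, Pde1c, Pde4c, Pde4d, Pde4dip, Pde5a, Pde6b, Pde6c, Pde6d, Pde6g, Pde6h, Pde7a and Pde8b.

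Of the PKA subunits, Prkar2b stood out by the number and height of its sites. It encodes RIIβ, the regulatory subunit abundant in adipose tissue, and had 5 sites at 4 °C. The site at −37.5 kb (chr12:32783557-32783757) held 20.87 FPKM at 4 °C and 11.03 FPKM at 29 °C in the HA-RevErbα pools, against 1.48 FPKM at 4 °C and 1.01 FPKM at 29 °C in the WT pools (ratio 1.89, 1.53 to 2.35). The site at −48.0 kb held 18.44 FPKM at 4 °C and 7.91 FPKM at 29 °C in the HA-RevErbα pools, against 3.33 FPKM at 4 °C and 1.41 FPKM at 29 °C in the WT pools (ratio 2.33, 1.83 to 2.99). Both were also in the 29 °C list. Prkaca, the main catalytic subunit, had a promoter site at −0.281 kb (chr8:86500401-86500601, mm9) with 7.07 FPKM at 4 °C and 3.55 FPKM at 29 °C in the HA-RevErbα pools, against 1.48 FPKM at 4 °C and 2.0 FPKM at 29 °C in the WT pools (ratio 2.0, 1.37 to 2.94). The type I regulatory subunit gene Prkar1a had 1 intronic site 4.50 kb from its start with 5.26 FPKM at 4 °C and 2.72 FPKM at 29 °C in the HA-RevErbα pools, against 0.56 FPKM at 4 °C and 1.80 FPKM at 29 °C in the WT pools (ratio 1.94, 1.26 to 3.03). Prkacb, Prkar1b and Prkar2a had no site.

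The anchoring proteins held 23 sites at 8 genes, with a median ratio of 2.73. Akap12, whose protein is gravin, had 9 of them. Its highest site, at −145 kb (chr10:6225502-6225702), held 19.61 FPKM at 4 °C and 6.34 FPKM at 29 °C in the HA-RevErbα pools, against 2.96 FPKM at 4 °C and 2.0 FPKM at 29 °C in the WT pools (ratio 3.10, 2.39 to 4.05). The site at −131 kb was in both lists and held 15.07 FPKM at 4 °C and 10.37 FPKM at 29 °C in the HA-RevErbα pools, against 0.75 FPKM at 4 °C and 1.21 FPKM at 29 °C in the WT pools (ratio 1.45, 1.15 to 1.83). These 2 and another 3 sites, at −127, −121 and −111 kb, lay within the transcript of Mthfd1l, a mitochondrial enzyme of folate metabolism, so the annotation to Akap12 rests on its start being the nearest. They were the only sites of the 110 inside the transcript of a gene under another name and locus (4.55%, against 16.1% of all 4 °C sites). The shares are not fully alike. Akap2 sites in the Pakap transcript were left out, whereas the 16.1% keeps every other symbol mismatch, including any genes renamed between annotations. In its own intron, at 16.2 kb, Akap12 had a site in both lists with 5.89 FPKM at 4 °C and 5.03 FPKM at 29 °C in the HA-RevErbα pools, against 1.12 FPKM at 4 °C and 0.21 FPKM at 29 °C in the WT pools, a ratio of 1.17 whose interval (0.825 to 1.67) included 1.

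Akap6, which anchors PKA at the nuclear envelope of muscle cells, had neighbouring intronic sites 844 bp apart with different ratios. The site at 136 kb held 6.28 FPKM at 4 °C and 0.67 FPKM at 29 °C in the HA-RevErbα pools, against 1.12 FPKM at 4 °C and 1.60 FPKM at 29 °C in the WT pools (ratio 9.53, 4.61 to 22.8). The site at 137 kb held 8.09 FPKM at 4 °C and 3.79 FPKM at 29 °C in the HA-RevErbα pools, against 1.85 FPKM at 4 °C and 0.81 FPKM at 29 °C in the WT pools (ratio 2.14, 1.49 to 3.09). Akap4, known from the fibrous sheath of the sperm tail, had the weakest of the promoter sites, at −0.0690 kb (chrX:6645167-6645367). It held 3.54 FPKM at 4 °C and 0.50 FPKM at 29 °C in the HA-RevErbα pools, against 0 reads in the WT pool at 4 °C, which allows up to 0.553 FPKM, and 0.41 FPKM in the WT pool at 29 °C (ratio 7.15, 3.04 to 20.5).

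The other anchoring genes were bound at lower height than Akap12. Akap1, of the outer mitochondrial membrane, reached 6.91 FPKM at 4 °C and 3.63 FPKM at 29 °C in the HA-RevErbα pools at its higher site (ratio 1.91, 1.31 to 2.80). Akap2 had 4 sites, all inside the transcript of Pakap, the locus that joins paralemmin and Akap2, and its highest had 8.01 FPKM at 4 °C and 4.12 FPKM at 29 °C in the HA-RevErbα pools (ratio 1.95, 1.37 to 2.79). Akap7 had 3 intronic sites, up to 8.09 FPKM at 4 °C and 2.97 FPKM at 29 °C in the HA-RevErbα pools (ratio 2.73, 1.85 to 4.11). Akap10 and Akap11 had 1 site each in annotated repeats. Akap13, Akap14, Akap17b, Akap3, Akap5, Akap8, Akap8l and Akap9 had no site.

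Among the Creb genes, neither Creb1, the factor that PKA phosphorylates, nor Crebbp, its coactivator, had a site. The 9 sites belonged to 4 relatives, and their median ratio was 3.53. None was in the 29 °C list, where only 14.9% of all 4 °C sites overlapped a 29 °C peak. Creb5 had 3 intronic sites, the highest at −49.4 kb (chr6:53473883-53474083) with 10.75 FPKM at 4 °C and 2.39 FPKM at 29 °C in the HA-RevErbα pools, against 2.04 FPKM at 4 °C and 1.41 FPKM at 29 °C in the WT pools (ratio 4.50, 3.0 to 6.98). Creb3l1, an endoplasmic reticulum membrane-bound factor, had 4 sites, the highest at 11.3 kb in an intron with 7.62 FPKM at 4 °C and 1.57 FPKM at 29 °C in the HA-RevErbα pools, against 0.38 FPKM at 4 °C and 0.61 FPKM at 29 °C in the WT pools (ratio 4.87, 2.96 to 8.43). Its relative Creb3l2 had 1 intronic site with 4.71 FPKM at 4 °C and 2.48 FPKM at 29 °C in the HA-RevErbα pools, against 0.56 FPKM at 4 °C and 0.81 FPKM at 29 °C in the WT pools (ratio 1.91, 1.21 to 3.06). Crebrf, which encodes a regulator of the CREB3 factor, had 1 intergenic site at −9.92 kb with 4.56 FPKM at 4 °C and 1.41 FPKM at 29 °C in the HA-RevErbα pools, against 0.93 FPKM at 4 °C and 1.21 FPKM at 29 °C in the WT pools (ratio 3.25, 1.87 to 5.96). Creb3, Creb3l3, Creb3l4, Crebl2 and Crebzf had none.

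**Figure D3:**
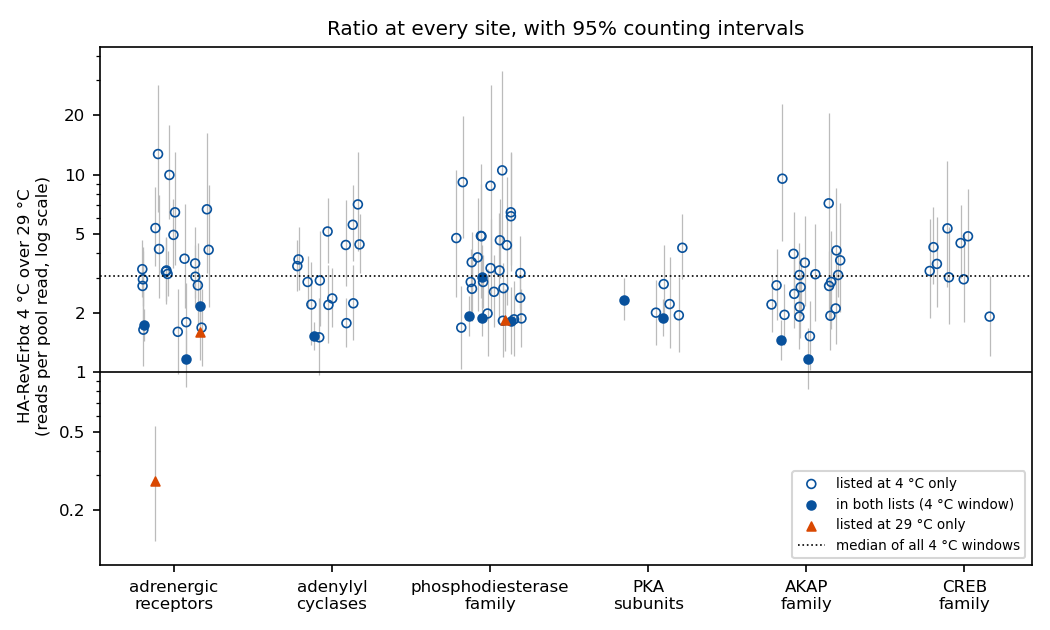
Ratio of HA-RevErbα reads at 4 °C to those at 29 °C, per read of the pool (log axis), for each of the 113 sites by family; grey bars are 95% counting intervals, the solid line marks 1 and the dotted line the median of all 4 °C windows, 3.05. All 12 sites in both lists lie below the dotted line, and the Adrb1 site at −57.3 kb is the only point below 1.

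Sites listed at both temperatures had higher medians and smaller ratios than the rest. Of the 110 sites at 4 °C, 12 (10.9%) overlapped a 29 °C peak, against 14.9% of all 4 °C sites, and of the 15 sites at 29 °C, 12 (80.0%) overlapped a 4 °C peak, against 76.5% of all 29 °C sites. The 12 shared windows had medians of 16.8 FPKM at 4 °C and 8.77 FPKM at 29 °C in the HA-RevErbα pools, against 1.85 FPKM at 4 °C and 1.11 FPKM at 29 °C in the WT pools. Their median ratio was 1.85, and that of the 98 sites listed at 4 °C only was 3.13; over all sites the same medians were 1.88 and 3.28. Among them, Adra1a, Pde3a, Prkar2b and Akap12 had 2 each and Adcy5, Pde4b and Pde7b 1 each. Presence in a list depends on passing its limits, so these ratios are partly set by how the classes are made.

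In the 15 windows listed at 29 °C the median density was 11.5 FPKM at 4 °C and 5.85 FPKM at 29 °C in the HA-RevErbα pools, against 1.48 FPKM at 4 °C and 1.01 FPKM at 29 °C in the WT pools. The median ratio was 1.69, against 1.64 over all 29 °C windows, and the interval lay above 1 in 11 of 15 (73.3%), against 66.8% of all 29 °C windows. Here the list was called on the 29 °C pool, which by itself favours ratios below 1. The WT signal also differed in these windows: summed over the 15, it was 1.65 times as high per pool read at 4 °C as at 29 °C, and 1.71 times over all 29 °C windows. Scaling the tagged pools by the 29 °C-window factor brought the median ratio to 0.988, so the direction in the 29 °C windows depends on the scaling. That factor is itself partly set by the list. Its limit of 4 times over WT at 29 °C by itself favours windows with few WT reads at 29 °C. The reversal therefore cannot decide the direction. Over all 4 °C windows the WT factor was 1.02. In the 110 windows of the 4 °C list the WT factor was 0.962.

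At 29 °C the tagged signal was above WT in 95 of the 110 windows listed at 4 °C (86.4%, against 86.2% of all 4 °C windows). With counting error, the interval of HA-RevErbα over WT at 29 °C lay above 1 in 44 of 110 (40.0%), against 41.5% of all 4 °C windows. The limits that both lists show, at least 3 FPKM and, within rounding, 4 times over WT, were reached at 29 °C by none of the 98 sites listed at 4 °C only, where 1.01% of all such windows reached them. This is largely set by how the class is made, since its sites are those absent from the 29 °C list. By family, the interval of HA-RevErbα over WT at 29 °C lay above 1, among others, in 6 of 16 cyclase windows, 14 of 30 phosphodiesterase windows, 2 of 7 PKA windows, 11 of 23 anchoring protein windows and 2 of 9 Creb windows. In the 5 windows with the largest ratios, at Adrb3, Pde7b (2 sites), Adra1b and Akap6, that interval included 1.

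**Figure D4:**
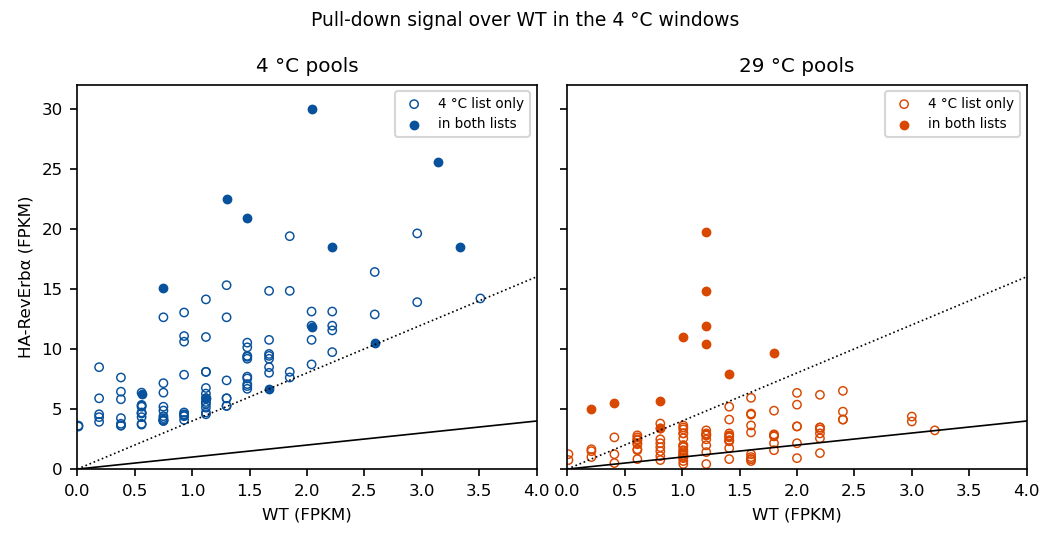
Density in the HA-RevErbα pool against the WT pool of the same temperature (FPKM) in the 110 windows of the 4 °C list, at 4 °C on the left and at 29 °C on the right; the solid line marks equal values, the dotted line 4 times WT, and filled points are the 12 sites in both lists. At 4 °C all 110 points lie on or above 4 times WT within rounding, and at 29 °C 95 lie above the line of equal values, the highest points being sites in both lists.

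The 6 promoter sites had a median ratio of 3.63, where all promoter sites of the 4 °C list had 3.06, and ran between 1.68 at Adra1d and 7.15 at Akap4. Most of the binding at these genes was far from promoters. Of the 110 sites 69 (62.7%) were intronic, against 47.8% of all 4 °C sites, 33 (30.0%) were intergenic, against 44.3%, and 6 (5.45%) were in promoters, against 3.82%. The median distance to a start was 37.5 kb, against 27.5 kb over the list. Within 10 kb of a start lay 23 sites (20.9%, against 26.1%), and beyond 100 kb 15 (13.6%, against 16.5%). Distances are to the nearest annotated start of the gene, and for 5 of the 22 genes with 2 or more sites (Adra1b, Akap1, Akap2, Creb5 and Pde7b) they imply more than 1 start.

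Genes of the same pathway that the symbol rule leaves out had sites in 18 of 42 cases (42.9%) at 4 °C and in 6 of 42 (14.3%) at 29 °C, beside the 21.8% and 6.30% of all protein-coding genes. Among those that couple or switch off receptors, 5 of 13 had a 4 °C site. Grk3, a kinase that desensitises receptors, had the highest, at −14.2 kb, with 30.98 FPKM at 4 °C and 15.55 FPKM at 29 °C in the HA-RevErbα pools, against 1.30 FPKM at 4 °C and 1.41 FPKM at 29 °C in the WT pools (ratio 1.99, 1.67 to 2.38). Rgs2, which shortens G protein signals, had 7 sites, the highest with 17.42 FPKM at 4 °C and 2.72 FPKM at 29 °C in the HA-RevErbα pools, against 1.67 FPKM at 4 °C and 0.81 FPKM at 29 °C in the WT pools (ratio 6.41, 4.44 to 9.55). Gnas, which encodes the stimulatory G protein subunit, had no site.

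Downstream of cAMP, Rapgef3 and Rapgef4, the exchange factors that cAMP activates beside PKA, had 2 and 3 sites, and the PKA inhibitor genes Pkia, Pkib and Pkig had none. Of the coactivators, kinases and relatives of CREB 4 of 10 were bound at 4 °C. Sik1, a kinase that holds CREB coactivators in the cytoplasm, had 9 sites, and Sik3 had the largest ratio of the group at its highest site, 8.08 (5.13 to 13.4). Of the lipolysis and kinase targets of PKA, Lipe, the hormone-sensitive lipase, and Abhd5, the coactivator of adipose triglyceride lipase, had 2 sites each, while Plin1, Mapk14, Map2k3 and Map2k6 had none. The highest Lipe site held 20.87 FPKM at 4 °C and 6.26 FPKM at 29 °C in the HA-RevErbα pools, against 2.77 FPKM at 4 °C and 3.0 FPKM at 29 °C in the WT pools (ratio 3.34, 2.58 to 4.37). Among genes known to respond to cAMP, Ucp1, Ppargc1a, Nr4a1, Fos and Dio2 were bound at 4 °C, and Nr4a2, Nr4a3 and Per1 were not. The highest Ucp1 site, at −5.80 kb, held 20.55 FPKM at 4 °C and 11.44 FPKM at 29 °C in the HA-RevErbα pools, against 1.67 FPKM at 4 °C and 2.80 FPKM at 29 °C in the WT pools (ratio 1.80, 1.46 to 2.22).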

How the data were processed

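Groups came from the sample labels; replicate numbers were given in accession order and pair nothing. For each library an aligner log was deposited. Per the file headers, the 2 peak lists, 1 per temperature, were made on pooled libraries and carry values of 4 pools. The submitters' processing notes name build mm9, Bowtie2 2.1.0 and HOMER 4.10 but not their roles, and no source used here gives the peak caller's settings. The authors' FPKM give the read density of the 200 bp window per kilobase and per M pool reads, plus 0.01; all values were whole multiples of a step per pool within 0.01 FPKM, which gave reads and pool sizes. The deposited peak score equals reads per 10 M pool reads, 2 times the FPKM within 3 percent. Of the uniquely aligned reads, the HA-RevErbα pools held 49.8% at 4 °C and 49.2% at 29 °C, and the WT pools 43.9% at 4 °C and 39.5% at 29 °C. A count of 3 reads corresponds to 0.235 FPKM at 4 °C and 0.247 FPKM at 29 °C in the HA-RevErbα pools, and to 0.553 FPKM at 4 °C and 0.598 FPKM at 29 °C in the WT pools. Since the reads carry no molecular identifiers, they cannot be taken as independent molecules, and intervals and limits cover counting error only.

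Sites were taken by the gene symbols of the authors' annotation and were shared when peaks overlapped by at least 1 bp. The gene table and promoters are of GRCm38.p6 and were used for names, IDs and sequences; 37 of the 38 gene IDs at 4 °C and all 10 at 29 °C matched. Coordinates are as in the files, and no source used here says whether starts count from 0 or 1. Calculations, tested on simulated data, used Python 3.11.15, pandas 2.3.3 and scipy 1.17.1. The study gives 1 pool per group, so no p-value was computed. The genes and lists were chosen with earlier results of these data known. A gene that follows the symbol rule counts in all totals and medians but is not reported here. Otherwise, named in full are the adrenergic receptor sites, and, per other family, genes with a 29 °C site, the 5 genes with the highest-scoring 4 °C sites and the gene with most sites, together with every promoter site and the 5 largest and 5 smallest ratios; Pde3b, the Adcy3, Adcy5 and Adcy10 sites other than the highest, and pathway genes outside the symbol rule were picked for the text after their values were seen. Alternatives changed the scaling, an added FPKM, a score minimum, a maximum distance, the WT subtraction and the overlap rule.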

Additional observations from a re-analysis of the deposited data

How the results depend on the processing

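No paired analysis was possible because the values are those of pools without replicate numbers, and leaving out a library was not possible for the same reason. The count of shared sites stayed at 12 under both other overlap rules. Keeping scores of at least 15 left 53 sites at 4 °C and 7 at 29 °C. Keeping sites within 10 kb of a start left 23 sites at 19 genes at 4 °C and 2 sites at 2 genes at 29 °C, and within 50 kb 68 sites at 4 °C and 6 sites at 5 genes at 29 °C; fewer sites remain by construction. The median ratio of 2.98 in the 4 °C windows became 2.07 when the pools were scaled to equal WT reads over shared windows, 1.75 when scaled to equal WT reads over the 29 °C windows, 2.64 and 2.41 with 0.5 and 1 FPKM added, which draws ratios toward 1, and 3.96 with WT subtracted where HA-RevErbα exceeded it at 29 °C. Under the same WT scalings the ratio was above 1 in 108 and 100 of the 110 windows and its interval above 1 in 82 (74.5%) and 71 (64.5%), against 106 by pool size; over all 4 °C windows the shares were 79.8% and 65.6%. In the 29 °C windows the median of 1.69 became 1.17 and, reversed, 0.988, with 10 and 7 of 15 ratios above 1 against 14. Scaling to the WT reads of the 29 °C windows took 6 of 57 named sites below 1. In 4 the interval by pool size lay above 1: Adcy5 at 61.4 kb became 0.889, Adra1d at −0.121 kb 0.982, Akap12 at −131 kb 0.852 and, in its 29 °C window, Adra1a at 111 kb 0.938. In 2 it included 1: Adcy5 at 54.7 kb became 0.878 and Akap12 at 16.2 kb 0.687, and the last was also below 1, at 0.814, with WT reads of shared windows. The WT factor of 4 °C to 29 °C differed with the windows used. It was 1.71 over all 29 °C windows, 1.44 over shared windows and 1.02 over all 4 °C windows. Each list shows a fold limit over WT of its own temperature, which by itself favours low WT values there. Any further reason why the WT pools differ between temperatures was not tested. Pool sizes of about 25.1 to 63.8 M reads leave a median of 6 reads per 4 °C window in each WT pool, which limits every fold over WT.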

Other observations

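Neighbouring sites of the same gene did not always share their ratio of 4 °C to 29 °C. Among the 110 sites of the 4 °C list there were 9 neighbouring pairs, at 7 genes, whose starts lay under 2 kb apart, a limit chosen after the values were seen. The intervals overlapped in 6 pairs and did not in 3 (33.3%), at Adra1a, Akap6 and Prkar2b; of the 764 such pairs in the whole 4 °C list they did not overlap in 90 (11.8%), a comparison with no test. At Prkar2b the sites at −36.1 kb and −37.5 kb were 1404 bp apart. The first held 12.63 FPKM in the HA-RevErbα pool at 4 °C and 2.97 FPKM in the HA-RevErbα pool at 29 °C, a ratio of 4.26 (2.96 to 6.30). The second held 20.87 FPKM in the HA-RevErbα pool at 4 °C and 11.03 FPKM in the HA-RevErbα pool at 29 °C, a ratio of 1.89 (1.53 to 2.35). In the pairs at Adra1a and Prkar2b the site with the smaller ratio was in both lists; in the pair at Akap6, with ratios of 9.53 and 2.14, both sites were in the 4 °C list only. Among the others, the pairs at Adrb1, Pde7b and Adra1b, the last with 2 pairs, and the second pair at Adra1a had overlapping intervals. The intervals hold counting error only, and the spread between animals was not measured.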
